A study of Homo sapiens with 8 samples.

Results

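The genes described here are 10 targets of the coactivator YAP and its DNA-binding TEAD partners that are widely read as a measure of YAP activity: CYR61 (also named CCN1), CTGF (also named CCN2), ANKRD1, AMOTL1, AMOTL2, LATS2, PTPN14, NUAK2, AXL and TEAD1. They were found by symbol among the 58302 genes of the count table, and all 10 were present and passed the filter on low counts that left 18973 genes. The libraries came from xenograft tumours grown from T24 cells, a long-established line from a human bladder carcinoma. In 4 of them (the DDR1 group) the T24 cells carried enforced expression of DDR1, a receptor tyrosine kinase activated by collagen. The other 4 (the control group) came from T24 tumours labelled control. The labels do not name the vector, the promoter driving DDR1, the host strain or the time of growth, nor whether either line is 1 clone or each library a separate animal. P-values here thus reflect library-to-library spread alone, part or all of which may be technical. All DDR1 titles name lane 8 and no control title does, so lane and group cannot be told apart. DDR1 replicates 2, 3 and 4 share a title prefix, as do control replicates 3 and 4.

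YAP and its relative TAZ (gene WWTR1) are coactivators that enter the nucleus when the Hippo kinases are inactive, for example in cells that spread on stiff matrix, and there bind TEAD factors on DNA. When the kinases MST and LATS are active, phosphorylated YAP and TAZ are held in the cytoplasm or degraded. Several targets, among them LATS2, AMOTL2 and PTPN14, act back on YAP as inhibitors, so their transcripts mark the output and the restraint of the pathway at once. In bladder and other epithelial tumours, high YAP and TAZ activity is known to accompany growth and spreading.

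Promoter stretches of 4 members are shown because CTGF varied most between libraries, NUAK2 separated the groups, PTPN14 followed CYR61 most closely and ANKRD1 held a pair of motifs. They are RefSeq sequences of build GRCh38.p14, read 5′ to 3′ on the strand of the gene, before the RefSeq start site and outside exons annotated in GENCODE 29. Capitals mark the TEAD motif GGAATG, or CATTCC where it lies on the opposite strand.
CTGF: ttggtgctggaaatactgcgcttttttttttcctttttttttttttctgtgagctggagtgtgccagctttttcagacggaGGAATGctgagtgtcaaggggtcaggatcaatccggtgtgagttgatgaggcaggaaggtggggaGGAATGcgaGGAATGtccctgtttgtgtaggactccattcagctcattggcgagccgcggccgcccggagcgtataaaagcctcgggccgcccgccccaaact
NUAK2: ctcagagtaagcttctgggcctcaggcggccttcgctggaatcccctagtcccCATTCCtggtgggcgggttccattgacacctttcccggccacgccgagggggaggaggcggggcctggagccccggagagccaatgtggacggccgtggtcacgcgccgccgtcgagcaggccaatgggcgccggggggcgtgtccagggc
PTPN14: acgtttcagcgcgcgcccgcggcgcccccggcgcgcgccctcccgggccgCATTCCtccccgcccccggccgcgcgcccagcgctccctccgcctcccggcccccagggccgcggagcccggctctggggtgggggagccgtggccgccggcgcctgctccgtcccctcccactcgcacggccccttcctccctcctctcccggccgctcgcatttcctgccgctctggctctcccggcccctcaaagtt
ANKRD1: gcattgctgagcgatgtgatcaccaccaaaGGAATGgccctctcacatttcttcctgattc
The CTGF stretch is chr6:131951374-131951622 on the minus strand, and its 3 motifs begin at positions -169, -104 and -95 from the start site. The NUAK2 stretch is chr1:205321792-205321995 on the minus strand, with a motif at -197, and a further one at -18 lies in an annotated exon and is not shown. The PTPN14 stretch is chr1:214551603-214551852 on the minus strand, inside the span of the gene in GENCODE 29 but outside its exons, with 1 motif at -200. The ANKRD1 stretch is chr10:90921277-90921337 on the minus strand, with a motif at -220, and another at -128 lies in an annotated exon. RefSeq windows of 300 bases, from 250 before to 50 after the start, were matched for 8 of the 10 members. The members not matched were CYR61 and TEAD1. The motif, searched on both strands, occurred in a window of 7 of these 8 members, and at least 2 times in 3 of them (CTGF, NUAK2 and ANKRD1). These counts are per member, while the shares that follow are per window. The 8 members had 10 windows, and AMOTL2 and AXL each had a window with the motif and another without it. Among all 35116 such windows, 14% held it at least once, 1.37% at least 2 times and 0.128% at least 3 times. The AP-1 motif TGANTCA, whose first letters TG can also be the last of a TEAD motif, was found in 1 member, ANKRD1, where it began at -195 clear of the TEAD motifs, and in 7.71% of all windows. A match is a description of the letters and not a shown binding site.

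Depth ran from 20789503 to 32271031 expected counts in the DDR1 group and from 13716286 to 22736674 in the controls. DDR1 itself stood at 159, 343, 427 and 810 CPM in DDR1 replicates 1 to 4, against 138, 110, 210 and 149 CPM in the controls (CPM are counts scaled to library size, here with TMM factors). Replicate 1 of the DDR1 group therefore lay inside the control range, and it is called the library labelled DDR1 replicate 1. The DDR1 log2 fold change, DDR1 over control, was 1.52 ± 0.43 (here and below ± after a log2 fold change is its standard error; edgeR unadjusted p = 0.00612, exact two-sided permutation p = 0.0571). Without the 2 controls of lane 7 it was 1.31 (edgeR unadjusted p = 0.0653). Keratins of an epithelial line were abundant, with KRT5 between 1611 and 4013 CPM in the DDR1 group and between 707 and 2718 CPM in the controls. Of 12 urothelial and epithelial markers, keratins included, 4 averaged under 1 CPM and 9 were tested. Among those 12, the uroplakin genes UPK1A and UPK3A did not exceed 0.209 CPM in any library. Of all genes tested, 0 passed edgeR at an adjusted p under 0.05 (0%), 791 had an unadjusted p under 0.05, 0 passed limma-voom, and 15 passed DESeq2 (0.0791%).

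None of the 10 members passed the test between DDR1 and control tumours once adjusted over all genes (edgeR adjusted p = 0.9998 for each). One member, the kinase gene NUAK2, was lower in every DDR1 library than in every control library. The best known YAP readouts, CYR61 and CTGF, had overlapping groups. They varied 5.12-fold and 23.3-fold over the 8 libraries, and in each group the same library was lowest for both. At an unadjusted p under 0.05 the count was 1 of 10 members, beside 4.17% of all genes, and this member was lower (2.24% of all genes were lower and 1.93% higher at that threshold).

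CYR61 and CTGF encode secreted matricellular proteins of the CCN family, which bind integrins and growth factors. CYR61 (ENSG00000142871, GRCh38 chromosome 1, 85580761 to 85583962, plus strand) stood at 33.8, 86.5, 131 and 107 CPM in DDR1 replicates 1 to 4, against 171, 77.3, 33.4 and 139 CPM in the controls. The groups overlapped over nearly their whole range, with the lowest DDR1 and the lowest control library at almost the same level. The fitted log2 fold change of CYR61 was -0.23 ± 0.51, and its 95% interval ran from -1.38 to 0.92 (edgeR unadjusted p = 0.662). The sign depended on single libraries: leaving out control replicate 1 gave 0.11, and leaving out the library labelled DDR1 replicate 1 gave 0.041. CTGF (ENSG00000118523, chromosome 6, 131948176 to 131951373, minus strand) stood at 5.92, 39.2, 138 and 24.3 CPM in the DDR1 libraries, against 54.7, 40.4, 7.71 and 70 CPM in the controls. The highest and the lowest value of all 8 libraries were thus both in the DDR1 group. The fitted log2 fold change of CTGF was 0.27 ± 0.86, with an interval from -1.65 to 2.18 (edgeR unadjusted p = 0.763). Leaving out DDR1 replicate 3 gave -0.90 and leaving out control replicate 3 gave -0.085. Leaving out other single libraries gave values up to 0.64, that without the library labelled DDR1 replicate 1.

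ANKRD1 encodes a nuclear ankyrin-repeat protein best known from heart and skeletal muscle, and it was the least abundant member. ANKRD1 (ENSG00000148677, chromosome 10, 90912096 to 90921276, minus strand) had 2.01, 1.77, 2.99 and 0.500 CPM in the DDR1 libraries, against 0.720, 2.26, 1.38 and 4.95 CPM in the controls. These levels rest on 10 to 74 counts per library, so counting error adds to the spread. Its fold change on the log2 scale, -0.33 ± 0.64 (edgeR unadjusted p = 0.613), became 0.33 without control replicate 4, -0.62 without control replicate 1, -0.67 without DDR1 replicate 3, -0.52 without control replicate 3 and -0.019 without DDR1 replicate 4. Control replicate 4 had the highest summed level of 12 striated muscle markers, which ran from 92.1 to 163.5 CPM in the DDR1 group and from 106.6 to 242.5 CPM in the controls. Of these 12 markers 7 averaged under 1 CPM, DES among them at no more than 0.381 CPM, and MYL1 was at 0 in 7 of the 8 libraries, while TTN and TNNT3 supplied most of the sum. Of the 5 muscle markers tested, 4 had a log2 fold change below 0 and 1 above it, with a median of -2.67 and 0 at an unadjusted p under 0.05. These are counts of human genes and no measure of host muscle. The part of muscle RNA in the ANKRD1 values was not tested.

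AMOTL1 and AMOTL2 encode angiomotin-like proteins that bind YAP and keep it at junctions and in the cytoplasm. AMOTL1 (ENSG00000166025, chromosome 11, 94706431 to 94876753, plus strand) had 210, 290, 372 and 307 CPM in the DDR1 libraries, against 301, 338, 264 and 304 CPM in the controls. The log2 fold change was -0.03 ± 0.19, and its 95% interval, from -0.47 to 0.40, was the narrowest among the members (edgeR unadjusted p = 0.868). Leaving out the library labelled DDR1 replicate 1 gave 0.10 and leaving out control replicate 2 gave 0.027. AMOTL2 (ENSG00000114019, chromosome 3, 134355874 to 134375479, minus strand) had 34.1, 45.5, 43.5 and 51.2 CPM in the DDR1 libraries, against 48.4, 42.4, 52.5 and 69.7 CPM in the controls. AMOTL2 had a log2 fold change of -0.29 ± 0.20 (edgeR unadjusted p = 0.171). It ranged from -0.38 without control replicate 2 to -0.12 without control replicate 4.

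LATS2 encodes a LATS kinase, which like its relative LATS1 phosphorylates YAP and TAZ. LATS2 (ENSG00000150457, chromosome 13, 20973032 to 21061547, minus strand) had 16.7, 21.4, 21.8 and 28.4 CPM in the DDR1 libraries, against 21, 19.8, 27 and 17.4 CPM in the controls. It differed 1.70-fold between its highest and lowest library, and its log2 fold change was 0.05 ± 0.21 (edgeR unadjusted p = 0.825). Leaving out control replicate 4 gave -0.026 and leaving out DDR1 replicate 4 gave -0.082, while leaving out control replicate 3 gave 0.19. Its gene model overlaps LATS2-AS1 on the other strand, and the protocols do not mention strand marking, so reads of the pair cannot be told apart. PTPN14 encodes a tyrosine phosphatase that binds YAP and restrains it. PTPN14 (ENSG00000152104, chromosome 1, 214348696 to 214552449, minus strand) had 239, 564, 594 and 592 CPM in the DDR1 libraries, against 787, 569, 323 and 601 CPM in the controls. In each group the low library was the same one as for CYR61 and CTGF. PTPN14 had a log2 fold change of -0.20 ± 0.34 (edgeR unadjusted p = 0.576). It became 0.034 when the library labelled DDR1 replicate 1 was left out and 0.0059 when control replicate 1 was. PTPN14 overlaps a gene model on the same strand, as does TEAD1, so their counts are uncertain to that extent.

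NUAK2 encodes an AMPK-related kinase, a YAP target reported to favour YAP activity in turn. NUAK2 (ENSG00000163545, chromosome 1, 205302059 to 205321791, minus strand) had 5.55, 6.33, 5.87 and 8.60 CPM in the DDR1 libraries, against 13.1, 9.73, 16.1 and 12.3 CPM in the controls. The highest DDR1 library lay below the lowest control, and such separate groups were seen for 2.40% of all tested genes, in this direction for 1.13%. The mean was 6.59 ± 1.38 CPM in the DDR1 group and 12.8 ± 2.64 CPM in the controls (SD, n = 4 each). The fitted ratio was 0.513, a log2 fold change of -0.96 ± 0.24 with a 95% interval from -1.50 to -0.43. The unadjusted p was 0.00255 in edgeR, 0.000101 in DESeq2 and 0.00201 in limma-voom, and the adjusted p was 0.9998, 0.0653 and 0.9999 in that order. Permuting the group labels gave an exact two-sided p of 0.0286 on log2 CPM, the smallest that 70 orderings allow. Over the 18 alternatives the log2 fold change ran from -1.10 to -0.79 and the unadjusted p from 0.000101 to 0.0254, while the adjusted p stayed between 0.0653 and 0.99997. The library labelled DDR1 replicate 1, which had a control level of DDR1, held the lowest NUAK2 of all 8. Within the DDR1 group NUAK2 was highest in replicate 4, the library with most DDR1.

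AXL encodes a receptor tyrosine kinase for GAS6. AXL (ENSG00000167601, chromosome 19, 41219203 to 41261766, plus strand) had 82.1, 185, 236 and 222 CPM in the DDR1 libraries, against 352, 154, 199 and 394 CPM in the controls. Control replicates 1 and 4 exceeded all DDR1 libraries, while control replicates 2 and 3 lay within their range. AXL had a log2 fold change of -0.60 ± 0.38 (edgeR unadjusted p = 0.151). It was -0.36 when the library labelled DDR1 replicate 1 was left out and -0.37 without control replicate 4. Without control replicate 2 it was -0.80. TEAD1, a DNA-binding partner of YAP (ENSG00000187079, chromosome 11, 12674591 to 12944483, plus strand), had 253, 320, 344 and 250 CPM in the DDR1 libraries, against 312, 353, 231 and 417 CPM in the controls. The TEAD1 log2 fold change was -0.17 ± 0.21 (edgeR unadjusted p = 0.443), ranging from -0.30 without control replicate 3 to -0.031 without control replicate 4.

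Per kilobase of exon, which allows levels of different genes to be set side by side, AXL and CYR61 were highest and ANKRD1 lowest. In CPM per kilobase, AXL averaged 35.2 ± 13.5 in the DDR1 group and 53.3 ± 22.6 in the controls (SD, n = 4 each), and CYR61 36.5 ± 16.8 and 42.8 ± 25.1. PTPN14, AMOTL1, TEAD1 and CTGF followed at 26.5, 29.4, 28.4 and 22.2 in the DDR1 group and 30.4, 30, 31.9 and 18.5 in the controls. From AXL to CTGF, neighbours in this order had overlapping ranges. AMOTL2 stood at 7.28 ± 1.19 in the DDR1 group and 8.90 ± 1.96 in the controls, and LATS2 at 3.95 ± 0.860 and 3.82 ± 0.737. NUAK2 stood at 1.91 ± 0.401 in the DDR1 group and 3.73 ± 0.767 in the controls. ANKRD1 stood at 0.919 ± 0.519 and 1.18 ± 0.940 in the same order. The SDs of NUAK2 and LATS2 overlapped in the controls and did not in the DDR1 group.

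As a list, 8 of the 10 members had a log2 fold change below 0 (50.5% of all tested genes did) and 2 above it, with a median of -0.21 against -0.003 over all tested genes. That split rested on single libraries. The number of members above 0 became 5 when the library labelled DDR1 replicate 1 was left out, 4 without control replicate 1, and 1 without control replicate 3, DDR1 replicate 3 or DDR1 replicate 4. Their median moved to -0.037 without the library labelled DDR1 replicate 1, -0.049 without control replicate 4, -0.10 without control replicate 1, -0.35 without control replicate 3 and -0.38 without DDR1 replicate 3. Group membership accounted for 78.3% of the variance of log2 CPM in NUAK2, 25.5% in AMOTL2 and 20.9% in AXL. In CYR61 it accounted for 0.750% and in CTGF for 0.280%, beside a median of 7.05% over the 11894 tested genes with at least 5 CPM.

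**Figure D1:**
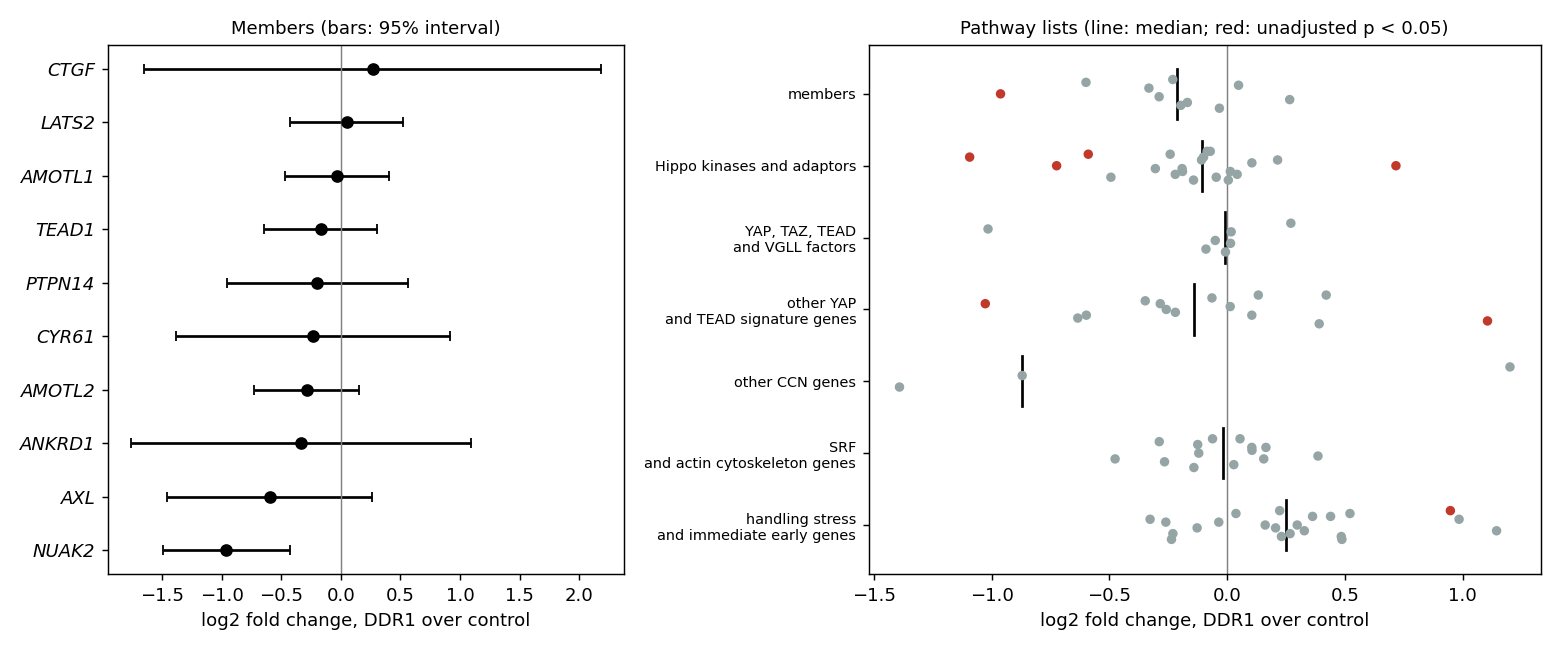
Left, log2 fold change of each member, DDR1 over control (horizontal axis), with its 95% interval from edgeR; right, log2 fold changes of the members and of 6 further lists, each point a gene, with red for an unadjusted p under 0.05 and a line at the list's median. The interval of NUAK2, from -1.50 to -0.43, is the one that leaves out 0.

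Of the 10 members, 6 varied among libraries more than the median gene and 4 less, and several varied together. The SD of log2 CPM over 8 libraries was 1.54 for CTGF, larger than in 98% of genes with at least 5 CPM, 0.90 for CYR61 (94.2%) and 0.71 for AXL (90.4%). AMOTL1 (0.25), LATS2, TEAD1 and AMOTL2 lay below the median SD of 0.32. The library labelled DDR1 replicate 1 held the lowest value of 7 members, CTGF, AMOTL1, AMOTL2, LATS2, PTPN14, NUAK2 and AXL. Control replicate 3 held the lowest value of CYR61 and TEAD1, and control replicate 4 the highest of ANKRD1, AMOTL2, AXL and TEAD1. The library labelled DDR1 replicate 1 and control replicate 3 belong to different groups and held 32271031 and 22416663 expected counts. Their TMM factors were 1.08 and 1.04, where the lowest of the 8 libraries was 0.933. The part of depth or scaling in these low values was not tested.

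**Figure D2:**
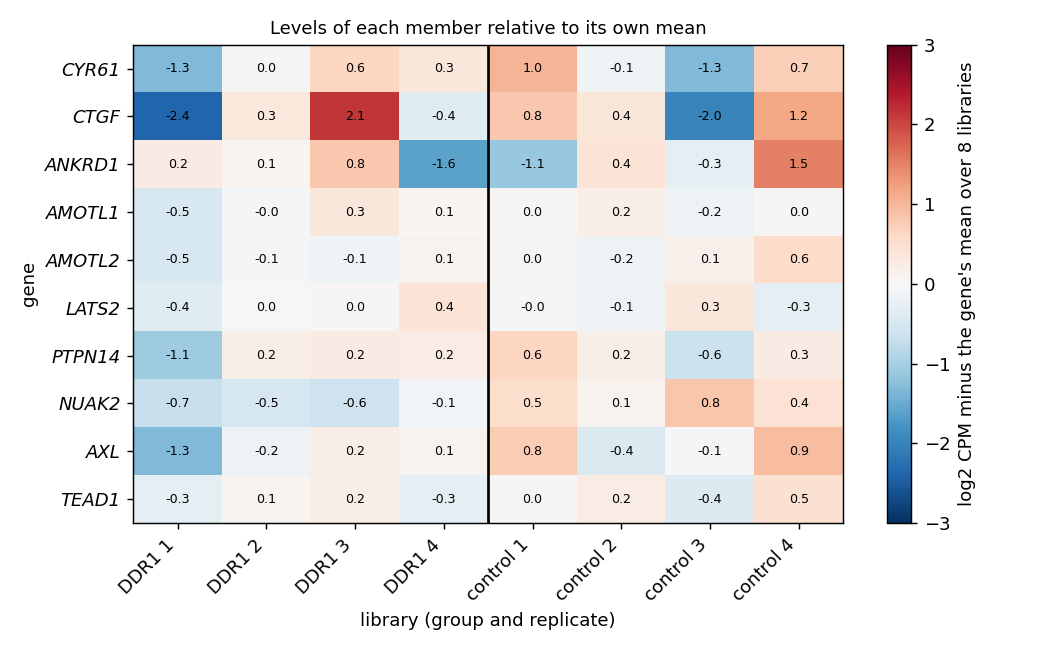
Log2 CPM of each member (rows) in each library (columns, DDR1 left of the line and control right of it), minus the mean of that gene over the 8 libraries. CYR61, CTGF and PTPN14 are low in DDR1 replicate 1 and in control replicate 3, and NUAK2 is below its mean in all 4 DDR1 libraries.

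Among the 45 pairs of members, 36 had a positive Pearson r of log2 CPM over the 8 libraries. CYR61 and PTPN14 were the 1 pair that passed after adjustment over the 45 pairs: Pearson r was 0.94 (exact permutation p = 0.000372, adjusted p = 0.0167) and Spearman rho was 0.95 (exact permutation p = 0.00114, adjusted p = 0.0513). Without the library labelled DDR1 replicate 1 and control replicate 3, the 2 farthest from the median of CYR61, r was 0.78. It was 0.97 within the 4 DDR1 libraries and 0.96 within the 4 controls, where 4 libraries are too few for a test. For CYR61 and CTGF r was 0.90 and rho 0.79 (exact permutation p = 0.00585 and 0.0279, adjusted p = 0.0878 and 0.209), and r was 0.49 without the same 2 libraries. For CTGF and PTPN14 r was 0.86 and rho 0.83 (exact permutation p = 0.00980 and 0.0154, adjusted p = 0.101 and 0.173), and r was 0.12 without them, so that relation rested on those 2 libraries. CYR61 and AXL had r = 0.79 and rho = 0.83 (exact permutation p = 0.0179 and 0.0154, adjusted p = 0.101 and 0.173), and r was 0.91 without them. The count of 1 passing pair was 0 without control replicate 1, 2 or 4 or DDR1 replicate 2 or 4, and 2 without control replicate 3. The 4 DDR1 libraries are also those of lane 8, so the value within them is one within a lane. Lane 7 holds 2 controls, and 2 controls have no lane number, too few for an r.

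**Figure D3:**
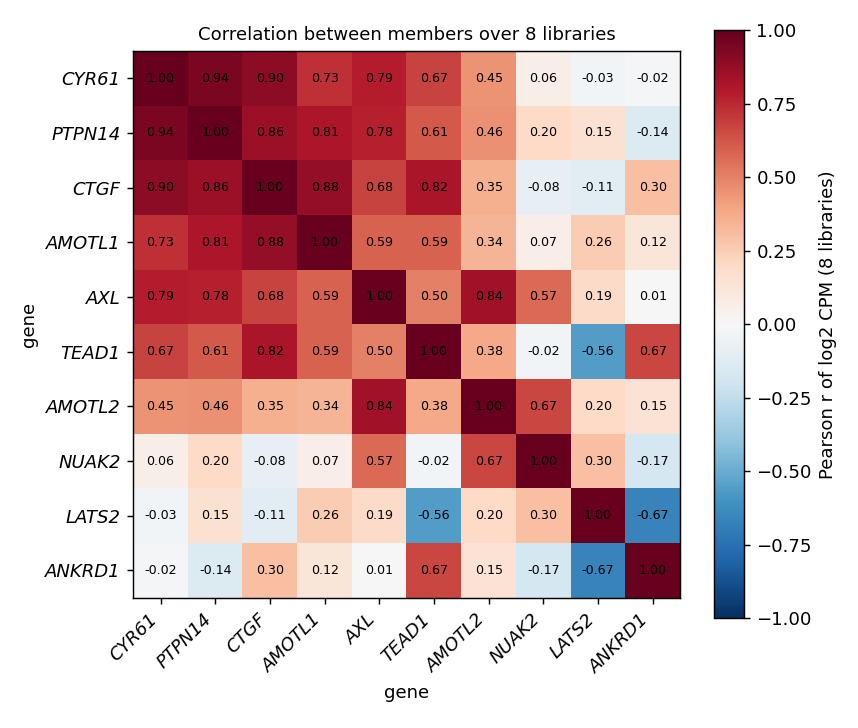
Pearson r of log2 CPM between members over 8 libraries, from -1 (blue) to 1 (red). CYR61, PTPN14, CTGF, AMOTL1, AXL and TEAD1 form a block of positive values, and the lowest value is -0.67, between ANKRD1 and LATS2.

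Among the 36 pairs of the 9 members with at least 5 CPM, 7 had r of at least 0.8 (19.4%) and the median r was 0.48. Over all 70727671 pairs of such genes, 2.19% reached 0.8 and the median was 0.00. Pairs share genes and libraries, so these shares are descriptions. NUAK2 had r = 0.06 with CYR61 and -0.08 with CTGF (rho 0.12 and 0.10), and LATS2 had -0.03 and -0.11 (rho -0.05 for both); the lowest exact permutation p among these was 0.793 before adjustment and 0.945 after it. Ordered by r with CYR61 among 10976 protein-coding genes with at least 5 CPM, PTPN14 was at rank 19, CTGF at 75, AXL at 379, AMOTL1 at 626 and TEAD1 at 896. AMOTL2 was at rank 2147, NUAK2 at 4599 and LATS2 at 5186. The 3 genes most like CYR61 were LRRC8C, a subunit of volume-regulated anion channels (r = 0.99), MACF1, a large protein that links actin and microtubules (0.99), and PDLIM4, a PDZ and LIM domain protein (0.98). The 3 most like CTGF were TENM4, a teneurin (0.99), ARPC1A, a subunit of the actin-nucleating Arp2/3 complex (0.99), and CCDC80, a secreted matrix protein (0.99). CCDC80 is also among the further YAP and TEAD signature genes described below. It spanned 1.67 to 13.0 CPM over the DDR1 libraries and 2.58 to 8.99 CPM over the controls. TENM4 spanned 0.259 to 49.1 CPM over the DDR1 libraries and 0.344 to 15.4 CPM over the controls. With 8 libraries, such values of r are the extreme of 10976 genes.

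No member passed a test against the level of DDR1 itself. Over 8 libraries the largest r against DDR1 was that of LATS2, 0.66, with rho 0.71 (exact permutation p = 0.0773 and 0.0576, adjusted over 10 members p = 0.773 and 0.576). It was 0.39 without DDR1 replicates 3 and 4, the 2 farthest from the median of DDR1. For CYR61 r was 0.17 and rho -0.07 (exact permutation p = 0.707 and 0.882, adjusted p = 0.915 and 0.935), and for CTGF r was 0.12 and rho -0.14 (exact permutation p = 0.789 and 0.752, adjusted p = 0.915 and 0.935). Without DDR1 replicates 3 and 4, r was -0.21 for CYR61 and -0.17 for CTGF. For NUAK2 r was -0.38 and rho -0.40 (exact permutation p = 0.362 and 0.327, adjusted p = 0.915 and 0.935), and r was -0.30 without DDR1 replicates 3 and 4. As a description, after each group's mean was subtracted, r against DDR1 was 0.81 for NUAK2, opposite in sign to that over the 8 libraries, and 0.87 for LATS2.

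The factors that act on these targets passed no test between the groups either. YAP1 had 182, 236, 240 and 240 CPM in the DDR1 libraries, against 181, 239, 128 and 196 CPM in the controls, a log2 fold change of 0.27 ± 0.21 (edgeR unadjusted p = 0.220). WWTR1, which encodes TAZ, had 69.8, 197, 310 and 219 CPM in the DDR1 libraries, against 222, 209, 120 and 237 CPM in the controls. The WWTR1 log2 fold change was 0.01 ± 0.40 (edgeR unadjusted p = 0.973), and its 2 lowest libraries were those low in CYR61, CTGF and PTPN14. TEAD2 stood at 19.6 ± 4.37 CPM in the DDR1 group and 19.4 ± 5.20 CPM in the controls (SD, n = 4 each). Of the 7 tested genes for YAP, TAZ, the other TEAD factors and their VGLL partners, 0 had an unadjusted p under 0.05 and the median was -0.01; VGLL1 and VGLL2 were too low to test. That count was 1 without DDR1 replicate 3. WWTR1 overlaps the antisense gene WWTR1-AS1 and TEAD2 overlaps CD37 on the other strand, so their counts share the same uncertainty as LATS2.

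WWTR1 was compared with the members after its values had been seen, as 10 of 70 pairs between 7 factors and 10 members. It had r = 0.95 and rho = 0.79 with AMOTL1 (exact permutation p = 0.00146 and 0.0279, adjusted p = 0.0512 and 0.198). With PTPN14 it had r = 0.92 and rho = 0.90 (exact permutation p = 0.00499 and 0.00456, adjusted p = 0.1098 and 0.106). With CYR61 it had r = 0.88 and rho = 0.86 (exact permutation p = 0.00627 and 0.0107, adjusted p = 0.1098 and 0.179). The pair with CTGF passed by Pearson r (r = 0.93, exact permutation p = 0.000570, adjusted p = 0.0399) and not by Spearman rho, which was 0.93 (exact permutation p = 0.00223, adjusted p = 0.106). Without the library labelled DDR1 replicate 1 and control replicate 3, r was 0.85 for CTGF, 0.78 for AMOTL1, 0.49 for CYR61 and 0.04 for PTPN14. YAP1 had r = 0.61 with CTGF and 0.55 with CYR61, with rho 0.43 and 0.24 (exact permutation p = 0.1098 and 0.161 for r, 0.299 and 0.582 for rho, adjusted p = 0.371 and 0.430 for r, 0.693 and 0.741 for rho). Without control replicates 1 and 3, r of YAP1 was 0.56 with CTGF and 0.53 with CYR61. By r, WWTR1 had 5 of 10 pairs at an unadjusted exact permutation p under 0.05, VGLL3 4, and TEAD4 and VGLL4 2 each. Both pairs of TEAD4 were negative, and YAP1, TEAD2 and TEAD3 had 0. Over the members r of VGLL3 ran from -0.29 to 0.85. With CTGF it was 0.82 (exact permutation p = 0.0146, adjusted p = 0.170). With CYR61 r of VGLL3 was 0.67 (exact permutation p = 0.0757, adjusted p = 0.331). With PTPN14 it was 0.71 (exact permutation p = 0.0384, adjusted p = 0.224). Without DDR1 replicates 1 and 4, r of VGLL3 was 0.86 with CTGF, 0.92 with CYR61 and 0.89 with PTPN14.

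**Figure D4:**
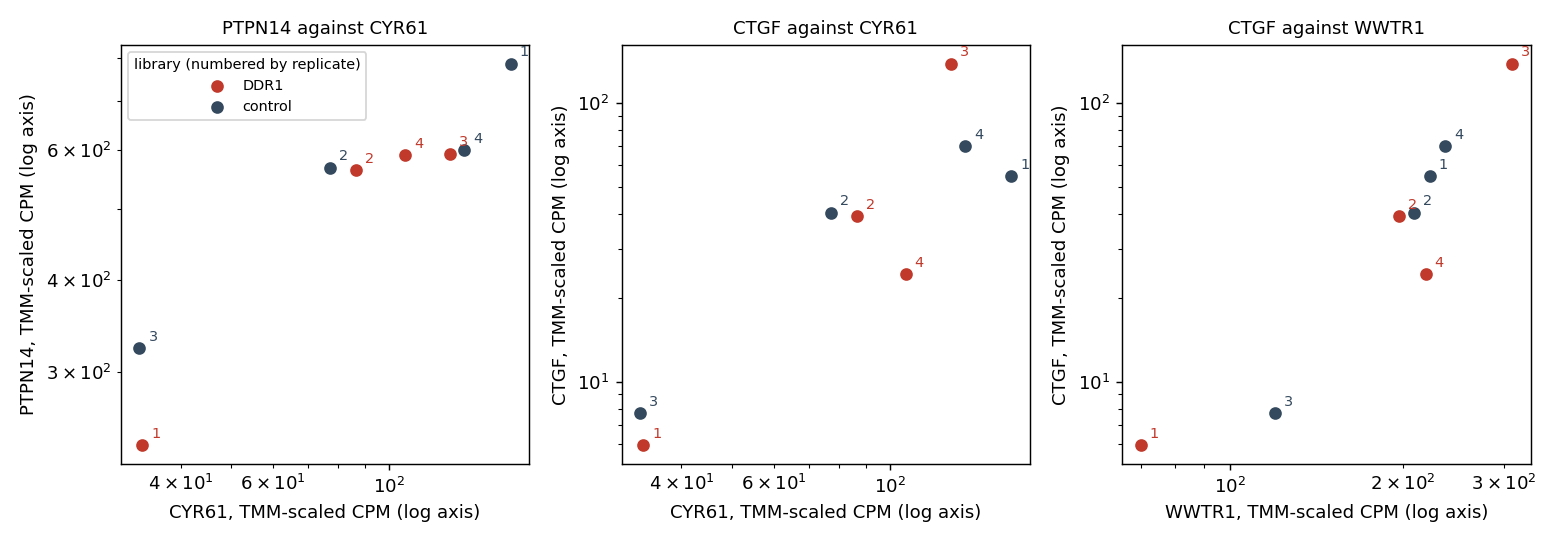
CPM of PTPN14 against CYR61, CTGF against CYR61 and CTGF against WWTR1 (all axes logarithmic), 1 point per library, numbered by replicate and coloured by group. The library labelled DDR1 replicate 1 and control replicate 3 lie at the low end of each plot.

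Upstream of YAP, 4 of 21 tested Hippo kinases and adaptors had an unadjusted p under 0.05, 3 lower and 1 higher in the DDR1 group, 0 passed over all genes, and the list's median was -0.11. The unadjusted share was 4.17% over all genes. WWC2, which with its relative WWC1 encodes a scaffold that activates LATS, had 22.9, 28.7, 30.2 and 20.8 CPM in the DDR1 libraries, against 41.9, 33.7, 31.4 and 47.5 CPM in the controls. It was the 1 gene of these 21 whose groups did not overlap, beside 2.40% of all tested genes, or 1.13% in this direction. WWC2 had a log2 fold change of -0.59 ± 0.19 (edgeR unadjusted p = 0.0132, adjusted p = 0.9998). WWC1 had a log2 fold change of -0.72 (12.5 ± 4.61 CPM in the DDR1 group and 20.7 ± 5.18 in the controls, SD, n = 4 each). AJUBA, a LIM protein that binds and inhibits LATS, had 0.72 (85.9 ± 39 and 52.3 ± 2.84 CPM). Its DDR1 libraries had 124, 65.1, 41.7 and 113 CPM, against 56.4, 51.5, 50.8 and 50.2 CPM in the controls. AJUBA was thus highest in the library labelled DDR1 replicate 1, and DDR1 replicate 3 lay below every control. DCHS1, a cadherin that pairs with FAT4, had -1.09 (1.78 ± 0.552 and 3.82 ± 2.60 CPM). The edgeR unadjusted p was 0.0426 for WWC1, 0.0430 for AJUBA and 0.0416 for DCHS1. In limma-voom the unadjusted p was 0.0444, 0.102 and 0.0599 in that order. Leaving out control replicate 4 took that count of 4 to 0, and leaving out DDR1 replicate 4 or the library labelled DDR1 replicate 1 took it to 1. It was 2 without control replicate 1, control replicate 2 or DDR1 replicate 3. With all libraries it was also 2 in limma-voom and in limma-trend on the deposited log2 values. The most abundant genes of the list per kilobase were FAT1, an atypical cadherin, MOB1A, a LATS cofactor, and NF2, which encodes Merlin. FAT1 averaged 1242 ± 158 CPM in the DDR1 group and 1371 ± 260 in the controls, MOB1A 230 ± 54.7 and 263 ± 60.4, and NF2 174 ± 40.8 and 180 ± 32.8. AJUBA and NF2 each overlap another gene model on the same strand.

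A further 14 genes often used in signatures of YAP and TEAD showed no common direction, with 6 higher, 8 lower and a median of -0.14. At an unadjusted p under 0.05 were 2 of the 14, F3 and FOXF2, beside 4.17% of all genes, and 0 passed over all genes. F3, tissue factor, had a log2 fold change of -1.03 (204 ± 77.6 CPM in the DDR1 group and 416 ± 212 in the controls), and FOXF2, a forkhead factor, had 1.11 (3.70 ± 1.40 and 1.71 ± 0.654 CPM). MYOF, a membrane repair protein, had 0.42, and NT5E, which makes adenosine, -0.63. The unadjusted p of NT5E was 0.0514 in edgeR, 0.0436 in DESeq2 and 0.0389 in limma-voom. The count of 2 became 1 without control replicate 1 or 3 or DDR1 replicate 4, and likewise when the library labelled DDR1 replicate 1 was left out. The median became 0.046 in that last case. The count became 3 in DESeq2, limma-voom, limma-trend on the deposited log2 values and with no filter on low counts. It was also 3 without control replicate 2, DDR1 replicate 2 or DDR1 replicate 3. Of the other CCN genes, NOV stood at 142 ± 78.7 CPM in the DDR1 group and 61.9 ± 40.6 in the controls, a log2 fold change of 1.20 (edgeR unadjusted p = 0.0572). WISP1 averaged 0.626 ± 0.411 CPM in the DDR1 group and 1.68 ± 2.03 in the controls, and WISP3, which overlaps TUBE1 on the other strand, 0.371 ± 0.0586 and 0.683 ± 0.316. WISP2 was too low to test. In edgeR none of these 3 tested CCN genes had an unadjusted p under 0.05 with all libraries, while NOV did in DESeq2 (unadjusted p = 0.0223) and limma-voom (unadjusted p = 0.0455). In edgeR 2 did without control replicate 1, and 1 did without control replicate 3 or 4, the library labelled DDR1 replicate 1 or DDR1 replicate 3.

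Genes of the actin cytoskeleton and its regulator SRF, which share inducers with CYR61 and CTGF, had 7 of 14 tested members higher, a median of -0.02 and 0 at an unadjusted p under 0.05 (1 without control replicate 2 or 3 or DDR1 replicate 3). ACTB averaged 2419 ± 734 CPM in the DDR1 group and 2173 ± 278 in the controls, ACTG1 1492 ± 389 and 1331 ± 103, and FLNA 2403 ± 567 and 2935 ± 806. Of 22 handling stress and immediate early genes, which can be induced within minutes of tissue handling as CYR61 can, 16 were higher, the median was 0.25 and FOS alone had an unadjusted p under 0.05 (log2 fold change 0.95, edgeR unadjusted p = 0.0246). The summed level of that list ran from 2802 to 4073 CPM in the DDR1 group and from 2503 to 4241 CPM in the controls, and most of it was HSPA8, HSPA1A and HSPA1B. FOS had 42.1, 21.8, 19.5 and 44.7 CPM in the DDR1 libraries, against 26.9, 12.6, 14.3 and 12.5 CPM in the controls. The part of tissue handling in the values of CYR61 and the other members was not tested. The count of 1 became 3 in DESeq2, with no filter on low counts and with libraries summed by title prefix. It became 0 when both controls lacking a lane were left out, 0 without control replicate 2, 3 or 4 and 4 without DDR1 replicate 3, and the list's median was -0.057 without DDR1 replicate 4.

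Human marker genes of stromal and blood cells had low counts, and the fibroblast and endothelial sums were low in the libraries low in CTGF, though not only there. The counts are of human genes, and whether mouse reads were removed is not stated. The sums are thus no measure of how much host stroma, vessel or blood a tumour held. In bulk tumours, fewer cells of a type and less RNA per cell cannot be told apart. The summed level of the fibroblast and pericyte markers, 11 identifiers, ran from 17.6 to 79.8 CPM in the DDR1 group and from 27.5 to 127 CPM in the controls. It was 21.3 CPM in the library labelled DDR1 replicate 1 and 27.5 CPM in control replicate 3, the libraries low in CTGF, but lowest in DDR1 replicate 4. Its defining genes DCN, LUM and COL1A2 did not exceed 0.961 CPM in any library, and THY1 supplied much of the sum with up to 14.1 CPM in the DDR1 group and up to 55.3 CPM in the controls. Of the 7 identifiers tested, 6 had a log2 fold change below 0, as 8 of the 10 members did, with a median of -0.39 and 1, THY1, at an unadjusted p under 0.05. Endothelial markers summed to between 9.51 and 77 CPM in the DDR1 group and between 8.74 and 56.9 CPM in the controls, and 5 of the 8 averaged under 1 CPM. Their sum was 9.51 CPM in the library labelled DDR1 replicate 1 and 8.74 CPM in control replicate 3, but also 11.7 CPM in control replicate 1, where CYR61 was highest. All 4 endothelial markers tested had a log2 fold change above 0, with a median of 0.62. Leukocyte markers summed to between 19.3 and 47 CPM in the DDR1 group and between 13.6 and 37.7 CPM in the controls, nearly all CD68, with PTPRC at no more than 0.167 CPM. The part of stromal or blood cell RNA in the values of the members was not tested.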

How the data were processed

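RNA from homogenised xenograft tumours was sequenced in 8 libraries. Per the submitters' processing notes, the authors ran RSEM 1.3.1 and STAR 2.7.5, with Trim Galore 0.6.4 and FastQC 0.11.9, on GRCh38. The annotation release, and whether mouse reads were removed, is not stated in the labels. The deposited expected counts are RSEM estimates per gene and were rounded to whole numbers. The deposited log2 values, TMM-normalized by the authors per the file name, served for 1 alternative; the single-library files repeat them. Gene names came from GENCODE 29 (58039 of 58302 identifiers matched, 263 did not).

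Genes were kept with filterByExpr (minimum count 10), scaled by TMM and tested with edgeR 4.0.16 (quasi-likelihood test, DDR1 against control, no covariate), with Benjamini-Hochberg adjustment over all genes and a threshold of 0.05. Log2 CPM used a prior count of 2. Intervals of 95% used the standard error from that fit. The fit was checked on simulated counts. Every 2 libraries differed beyond counting noise, the closest by a chi-square of 32.2 per degree of freedom. Alternatives used DESeq2 1.42.0, limma 3.58.1, other scalings, filters and subsets of libraries (R 4.3.3).

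The members and lists were chosen with earlier results of these data known. Named genes are all members, DDR1, and from each list those at an unadjusted p under 0.05 and the 3 most abundant per kilobase; further genes were chosen after their values were seen.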

Additional observations from a re-analysis of the deposited data

Results flagged for a closer look

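Among 35 named genes, each examined in both groups (70 groups of 4 libraries), 8 had a library that stood apart from the other 3 by Dixon's criterion for the gap to the nearest library. Chance flags about 1 in 20 groups. The member concerned was PTPN14, at 239 CPM in the library labelled DDR1 replicate 1, where the nearest library had 564 CPM. In the same library YAP1 was at 182 CPM (nearest 236), ACTB at 1320 CPM (nearest 2728) and WISP1 at 1.24 CPM (nearest 0.506). In DDR1 replicate 4, NF2 was at 234 CPM (nearest 158). Among the controls, DCHS1 was at 7.69 CPM in replicate 4 (nearest 2.97), FLNA at 1734 CPM in replicate 2 (nearest 3260) and FOS at 26.9 CPM in replicate 1 (nearest 14.3).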

How the results depend on the processing

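Of 179 refitted log2 fold changes of the members, 159 kept their direction, and 0 passed the adjusted threshold. AMOTL2, NUAK2, AXL and TEAD1 kept theirs under all 18 alternatives. With 1 library left out, the ranges that crossed 0 were -0.90 to 0.64 for CTGF, -0.67 to 0.33 for ANKRD1, -0.53 to 0.11 for CYR61, -0.39 to 0.034 for PTPN14, -0.16 to 0.10 for AMOTL1 and -0.082 to 0.19 for LATS2. CTGF was -0.13 in limma-voom, -0.14 in limma-trend on the deposited values and -0.19 after summing libraries by title prefix. That sum gave 0.031 for ANKRD1 and -0.092 for LATS2. Without the 2 controls of lane 7, CYR61 was 0.078, AMOTL1 0.085 and PTPN14 0.13, and DDR1 was 1.31 with an unadjusted p of 0.0653. Without the 2 controls that have no lane, ANKRD1 was 0.29. The number of members above 0, 2 in the report, was 1 in limma-voom, limma-trend and the prefix sum, 5 without the controls of lane 7, and 1 to 5 with 1 library left out. DESeq2 called 15 genes. Genes at an unadjusted p under 0.05 numbered 1569 with no filter, 470 with 5 CPM required in 4 libraries (ANKRD1 was then not tested) and 501 to 1215 with 1 library left out. Those in the 6 further lists, 7 in the report, numbered 11 in DESeq2 and with no filter, 3 without the controls of lane 7, and 3 to 12 with 1 library left out. Passing member pairs numbered 0 to 2 with 1 library left out. The cause was not tested. Depth limits ANKRD1, at 10 to 74 counts. No paired analysis was possible because the replicate numbers follow accession order and pair no libraries.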
